A study of Mus musculus with 8 samples.

Results

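RNA-Seq of primary murine articular chondrocytes was examined for 8 genes that build or tune the chondrogenic transcription program: *Sox9*, *Sox5* and *Sox6* (the SOX trio), *Sox8*, *Nkx3-2*, *Wwp2*, *Trps1* and *Arid5b*. They were taken by gene symbol and are 8 of the 54658 gene symbols counted. IL-1β, a proinflammatory cytokine tied to osteoarthritis, was given to 4 samples at 1 ng/mL, and another 4 samples received vehicle, with RNA taken after 24 h in each case. All cells were chondrocytes digested out of femoral head cartilage of wild-type mice aged 3 weeks and plated the day before treatment, with no transgene or deletion in either group. The labels give neither strain nor sex, and they do not say whether the 4 samples of a group were separate cultures or animals, so p-values measure only the spread between these samples.

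SOX proteins bind DNA through an HMG box. SOX9 commits mesenchymal cells to the cartilage lineage and switches on matrix genes such as *Col2a1* and *Acan*. SOX5 and SOX6, which have no transactivation domain of their own, bind beside SOX9 and strengthen its action at cartilage enhancers. SOX8 is a close relative of SOX9. Around the trio act NKX3-2, a homeodomain repressor that favours chondrogenesis and holds back *Runx2*, and TRPS1, a GATA-type zinc finger repressor of growth plate chondrocytes. ARID5B recruits the histone demethylase PHF2 to SOX9 target genes. WWP2 is a HECT ubiquitin ligase of the NEDD4 family, and an intron of its gene carries the cartilage microRNA miR-140.

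The microRNAs that bear on these genes are miR-146a-5p, the microRNA on which the study centres, and miR-140, embedded in *Wwp2*. Their mature sequences, from RefSeq (GRCm38.p6), are printed with the seed (bases 2 to 8) in capitals, since the seed defines the sites searched in the 8 genes. miR-140-5p has no entry in the table used and is only named here. miR-146b-5p shares the seed of miR-146a-5p, and miR-497b shares that of miR-140-3p.
miR-146a-5p: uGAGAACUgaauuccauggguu
miR-140-3p: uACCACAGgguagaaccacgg

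The longest coding transcript was taken for each of the 8 genes, and its 3′ UTR was searched for matches to these seeds, either to bases 2 to 8 (7mer) or to the same bases followed by A (8mer). Of the 8 genes, 1 held a site for miR-146a-5p, namely *Trps1*, and 12.6% of the 11922 tested genes with a 3′ UTR did so. Sites for miR-140-3p stood in 3 of the 8 genes (*Sox5*, *Arid5b* and *Trps1*), against 19.4% of all these genes. With 8mers only, *Trps1* was the 1 gene with a site for either microRNA, and the shares over all genes were 4.65% for miR-146a-5p and 3.98% for miR-140-3p. The site and its surroundings are printed 5′ to 3′ on the strand of the gene (GRCm38, all 3 genes on the minus strand), with the match in capitals. A match describes the letters only.
*Trps1*, miR-146a-5p 8mer, chr15:50658924-50658931: gaaacaaaggaAGTTCTCAgtgtaatggtg
*Trps1*, miR-140-3p 8mer, chr15:50656961-50656968: tttgtggaagcCTGTGGTAgcacatcctgt
*Trps1*, miR-140-3p 7mer, chr15:50660098-50660104: caaaatgtgaaCTGTGGTtaggcttgttga
*Sox5*, miR-140-3p 7mer, chr6:143833243-143833249: gggccaacagaCTGTGGTgagccgaggact
*Arid5b*, miR-140-3p 7mer, chr10:68096253-68096259: tgtgaaggtatCTGTGGTctatcctagaag
The 3′ UTRs differed widely in length, from 159 bases in *Nkx3-2* to 6046 bases in *Sox6*, and *Sox6* held no site for either microRNA. Those of the 3 genes with a site were long, at 5923 bases in *Trps1*, 4839 in *Sox5* and 3984 in *Arid5b*. *Sox9*, *Wwp2* and *Sox8*, with no site, had 2250, 1609 and 1441 bases. The shares over all genes are not matched for length. The genes with a site did not share a direction after IL-1β, with falls of *Trps1* and *Sox5* and a rise of *Arid5b*.

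Abundance was measured as whole-number counts per gene, which summed to 10992355 to 17456063 per sample, and 3 counts correspond to 0.172 to 0.273 CPM, the count relative to the library total, depending on the sample. CPM values are scaled with TMM factors (0.984 to 1.01). Fold changes are given as log2FC, the log2 fold change of IL-1β against vehicle, with a standard error (SE). They come from edgeR's quasi-likelihood test, applied to the 14404 genes that exceeded 1 CPM in 4 or more samples. The SE was derived from that test, as the size of the log2FC divided by the square root of the F statistic. Adjusted p-values are Benjamini-Hochberg values over all of these genes. A gene is called at an adjusted p under 0.05, and a differentially expressed gene (DEG) has in addition a log2 fold change above 1 or below -1. All 8 genes passed the filter.

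Of the 8 genes, 6 fell after IL-1β, 1 rose and 1 was not called. In the response as a whole, 40.2% of all genes tested were called, 19.8% lower and 20.4% higher. *Sox9* was the 1 DEG among the 8, and 5.21% of all genes tested were DEGs. In 7 of the 8 genes the samples of the groups did not overlap, which held for 36.8% of all genes tested. The median log2FC of the 8 genes was -0.38, and that of all genes tested was -0.0012. In bulk RNA, fewer cells of a type and less RNA per cell cannot be told apart.

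**Figure D1:**
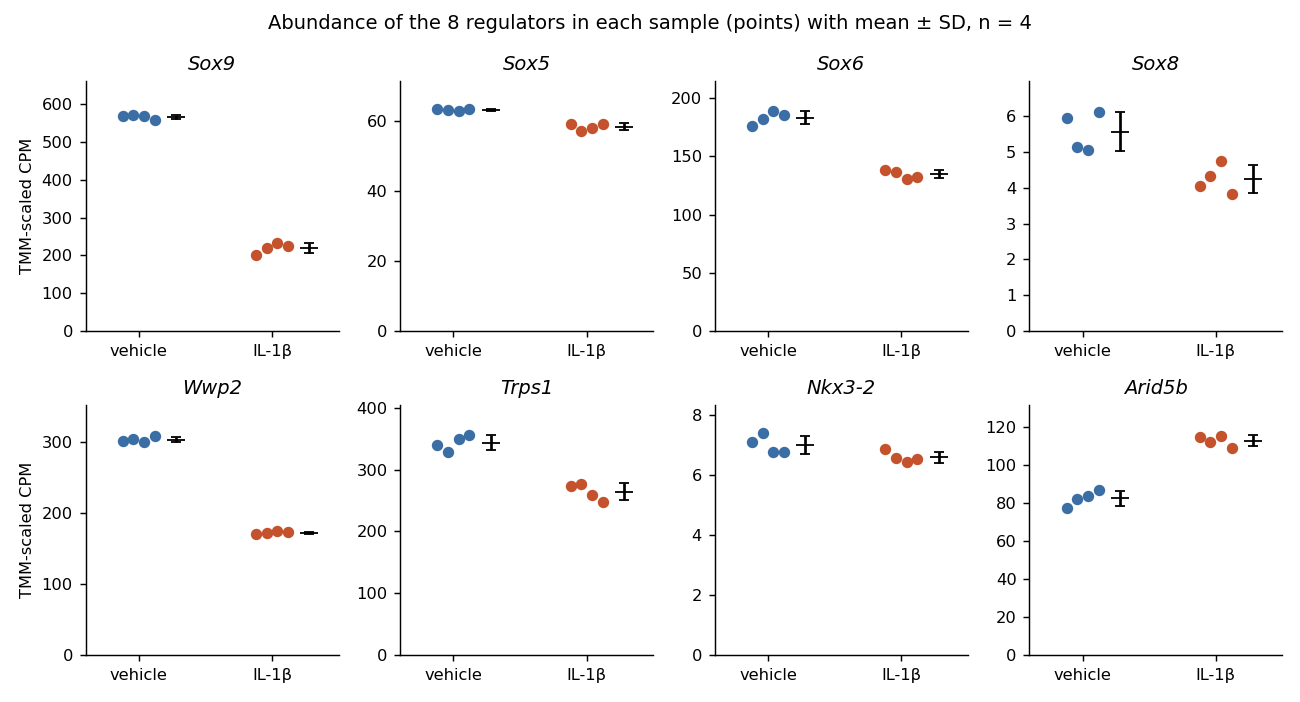
TMM-scaled CPM (vertical axes, each from 0) of the 8 genes in each vehicle (blue) and IL-1β (red) sample, with the mean and SD of 4 samples in black. In 6 panels every IL-1β sample lies below every vehicle sample, in the *Arid5b* panel every IL-1β sample lies above, and in the *Nkx3-2* panel the groups overlap.

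*Sox9* (chromosome 11, 112782224 to 112787760, plus strand), the master regulator of the lineage, changed most. It had 202.0, 218.6, 232.0 and 224.0 CPM in IL-1β replicates 1 to 4 and 567.4, 571.0, 567.4 and 558.7 CPM in vehicle replicates 1 to 4. The lowest vehicle sample thus lay far above the highest IL-1β sample. The mean was 219.1 ± 12.7 CPM after IL-1β and 566.1 ± 5.22 CPM with vehicle (SD, n = 4), a change of -61.2%. In edgeR its log2FC was -1.37 (SE 0.0358, adjusted p = 1.06e-22), and 169 genes (1.17% of those tested) had a lower log2FC. These values rest on 2242 to 3906 reads per IL-1β sample and 7957 to 9884 reads per vehicle sample.

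*Sox6* (chromosome 7, 115470872 to 116038796, minus strand), a partner of SOX9, fell less. Its levels were 138.4, 136.4, 130.7 and 132.6 CPM after IL-1β and 175.5, 182.1, 188.6 and 185.3 CPM with vehicle. The groups did not overlap, and the log2FC was -0.44 (SE 0.0310, adjusted p = 1.08e-12), or -26.5%.

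*Sox5* (chromosome 6, 143828425 to 144781977, minus strand), the other partner, had 59.02, 57.04, 57.97 and 59.15 CPM after IL-1β and 62.97 to 63.29 CPM in vehicle replicates 1, 2 and 4, with 62.61 CPM in replicate 3. The difference was small but larger than the spread within each group, at 58.29 ± 0.986 against 63.01 ± 0.292 CPM (SD, n = 4). Its log2FC was -0.11 (SE 0.0382, adjusted p = 0.0188), or -7.53%. By DESeq2 the adjusted p was 0.0655, and without IL-1β replicate 2 edgeR gave 0.0533, so this fall stood close to the threshold.

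The trio changed by unequal factors. Within each sample, the log2 ratio of *Sox6* to *Sox9* was 0.93 higher with IL-1β than with vehicle, and that of *Sox5* to *Sox9* was 1.26 higher. No IL-1β sample overlapped a vehicle sample in either ratio (exact permutation test over samples, two-sided, p = 0.0286, the smallest that 4 against 4 allows, and 0.0286 after adjustment over 7 ratios). *Sox9* is the gene of the 8 that fell most, and 98.8% of all genes tested had a higher log2FC, so a higher ratio to it is shared by nearly any gene and shows only that the factors were unequal. Per length, in RPKM (CPM divided by the exon length in kilobases), *Sox9* made up 89.42%, 89.24%, 88.94% and 88.89% of the summed level of the trio in the vehicle samples, and 78.43%, 80.06%, 81.37% and 80.58% in the IL-1β samples. The mean share of *Sox6* was 8.03% ± 0.251 with vehicle and 13.75% ± 0.946 with IL-1β, and that of *Sox5* was 2.85% ± 0.0318 and 6.14% ± 0.319 (SD, n = 4). These shares depend on the summed exon lengths, 4135 bases for *Sox9*, 14832 for *Sox6* and 14376 for *Sox5*. By CPM, the means of *Sox9*, *Sox6* and *Sox5* were closer, at 566.1, 182.9 and 63.01 with vehicle and 219.1, 134.5 and 58.29 after IL-1β. *Sox9* remained the main transcript of the trio in all 8 samples.

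**Figure D2:**
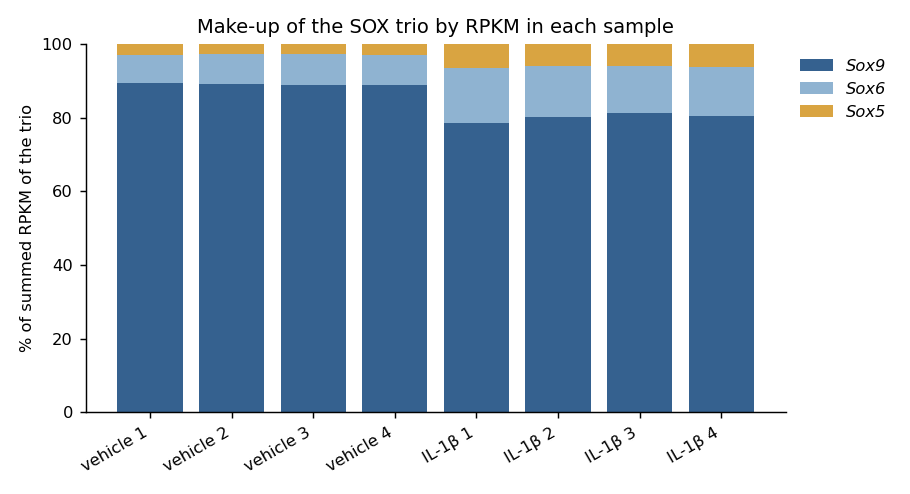
Share (%) of *Sox9*, *Sox6* and *Sox5* in their summed RPKM, with 1 stacked bar per sample. The *Sox9* share lies between 88.89% and 89.42% in the vehicle samples and between 78.43% and 81.37% in the IL-1β samples.

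*Sox8* (chromosome 17, 25565892 to 25570686, minus strand), of the same SOXE group as *Sox9*, was the lowest of the 8 genes. It had 4.055, 4.327, 4.752 and 3.830 CPM after IL-1β and 5.942, 5.142, 5.063 and 6.112 CPM with vehicle, from 45 to 80 and 71 to 103 reads per sample. The IL-1β samples lay below the vehicle samples with a narrow gap. The log2FC was -0.38 (SE 0.129, adjusted p = 0.0178). By DESeq2 the adjusted p was 0.0559, and without IL-1β replicate 4, vehicle replicate 1 or vehicle replicate 4 edgeR gave 0.0586, 0.0545 and 0.0639. An antisense gene, *2810468N07Rik*, overlaps 10.6% of the exon bases of *Sox8* and had a log2FC of 0.43 (adjusted p = 0.0658). Whether the counting used strand is not given in the sources used here, so reads from the overlap cannot be assigned.

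*Wwp2* (chromosome 8, 107436365 to 107558595, plus strand) showed the second largest fall of the 8. It had 170.8, 171.6, 174.5 and 172.7 CPM after IL-1β and 302.2, 304.0, 299.7 and 308.2 CPM with vehicle. Both groups were tight and far apart, with 172.4 ± 1.58 against 303.5 ± 3.55 CPM (SD, n = 4). *Wwp2* had a log2FC of -0.82 (SE 0.0300, adjusted p = 3.63e-19), or -43.2%, and 3.17% of all genes tested had a lower one. *Mir140*, the miR-140 hairpin gene on the same strand within *Wwp2* (chromosome 8, 107551244 to 107551313), had 0 counts in all 8 samples. Its 70 bases lie wholly in sequence annotated as exon in some *Wwp2* transcript, and how reads shared by 2 genes were counted is not given in the sources used here, so these counts say nothing of the level of miR-140.

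*Trps1* (chromosome 15, 50654752 to 50890463, minus strand), the repressor whose 3′ UTR holds the sites printed above, had 273.7, 277.4, 259.3 and 247.4 CPM after IL-1β and 340.5, 329.0, 349.8 and 356.3 CPM with vehicle. The highest IL-1β sample stayed under the lowest vehicle sample. The means were 264.4 ± 13.8 and 343.9 ± 11.8 CPM (SD, n = 4), with a log2FC of -0.38 (SE 0.0365, adjusted p = 9.70e-10), or -23.1%.

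*Nkx3-2* (chromosome 5, 41761483 to 41764501, minus strand) was the 1 gene of the 8 that was not called. Its levels were 6.848, 6.563, 6.415 and 6.524 CPM after IL-1β and 7.096, 7.395, 6.775 and 6.769 CPM with vehicle. IL-1β replicate 1 lay above vehicle replicates 3 and 4. The log2FC was -0.096 (SE 0.106, adjusted p = 0.520), from 76 to 108 and 95 to 128 reads per sample.

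*Arid5b* (chromosome 10, 68092520 to 68278740, minus strand) was the 1 gene of the 8 that rose. It had 115.1, 112.3, 115.5 and 109.4 CPM after IL-1β and 77.65, 82.10, 83.79 and 86.88 CPM with vehicle. The lowest IL-1β sample stood well above the highest vehicle sample. Its log2FC was 0.45 (SE 0.0374, adjusted p = 3.84e-11), or 1.37-fold. *Phf2*, the demethylase partner of ARID5B, named here after its values were seen, had a log2FC of -0.18 (adjusted p = 0.000194), and the paralog *Arid5a*, named likewise, had one of 0.01 (adjusted p = 0.876).

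The distance of the other genes from *Sox9* varied. The shift of the log2 ratio to *Sox9* was 0.56 for *Wwp2*, the gene that followed *Sox9* most closely, 0.98 for *Sox8*, 0.99 for *Trps1*, 1.28 for *Nkx3-2* and 1.83 for *Arid5b*. The last is a 3.54-fold shift, as *Arid5b* rose where *Sox9* fell. These shifts are upward for 98.8% of all genes tested, since *Sox9* fell so far, and carry the fall of *Sox9* itself, so they are given as values that order the genes and not as changes of these genes.

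Per length, *Sox9* led the 8 genes in both groups, with 136.9 ± 1.26 RPKM in vehicle and 53.0 ± 3.07 RPKM in IL-1β samples (SD, n = 4). In vehicle samples it was followed by *Wwp2* (34.21 RPKM), *Trps1* (25.7 RPKM), *Sox6* (12.33 RPKM), *Arid5b* (8.211 RPKM), *Sox5* (4.383 RPKM), *Nkx3-2* (4.080 RPKM) and *Sox8* (1.785 RPKM). No neighbours in this order overlapped, and *Sox9* stood 4.00-fold above the next gene. In IL-1β samples *Trps1* (19.76 RPKM) and *Wwp2* (19.44 RPKM) overlapped and could not be ordered, as was so for *Sox5* (4.055 RPKM) and *Nkx3-2* (3.834 RPKM). *Arid5b* (11.24 RPKM) then stood above *Sox6* (9.072 RPKM), the reverse of their order with vehicle, and *Sox8* (1.360 RPKM) remained lowest. The lead of *Sox9* over the next gene was 2.68-fold in this group. By CPM, which is not corrected for length, *Trps1* stood above *Sox9* in the IL-1β samples and above *Wwp2* in the vehicle samples. *Sox6* stood above *Arid5b* in both groups by CPM, so the order between genes depends on the lengths used.

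The rest of the SOX family was then examined. The table lists 19 SOX genes, of which 9 passed the filter, 5 of them beyond the 4 already described. Of these 5, 2 fell, 2 rose and 1 was not called. The called share was 80.0%, against 40.2% of all genes tested. *Sox7*, a SOXF gene known from endothelium, fell from 6.318 ± 0.739 to 1.993 ± 0.338 CPM (log2FC -1.68, SE 0.156, adjusted p = 4.74e-10) and was a DEG. It had 23 to 32 reads per IL-1β sample and 87 to 126 per vehicle sample. Endothelial markers summed to at most 1.247 CPM in any sample, and which cells gave the *Sox7* reads was not tested. *Sox4*, a SOXC gene of progenitor cells, had 34.06, 33.03, 36.77 and 32.76 CPM after IL-1β and 57.05, 62.63, 58.33 and 61.32 CPM with vehicle (log2FC -0.81, adjusted p = 2.09e-14). The other SOXC genes moved the opposite way to *Sox4*. *Sox11* rose from 9.110 ± 1.37 to 13.2 ± 0.711 CPM (log2FC 0.54, adjusted p = 7.11e-05), and *Sox12* rose from 53.39 ± 3.02 to 63.97 ± 2.53 CPM (log2FC 0.26, adjusted p = 2.06e-05). *Sox13*, the third SOXD gene beside *Sox5* and *Sox6*, had a log2FC of -0.27 (SE 0.141, adjusted p = 0.134), with 3.574 ± 0.467 CPM after IL-1β and 4.341 ± 0.237 CPM with vehicle. None of the other 10 SOX genes exceeded 10 reads in any sample. These included *Sox10*, the remaining SOXE gene, with at most 6 reads, and *Sox17* and *Sox18*, the SOXF relatives of *Sox7*.

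**Figure D3:**
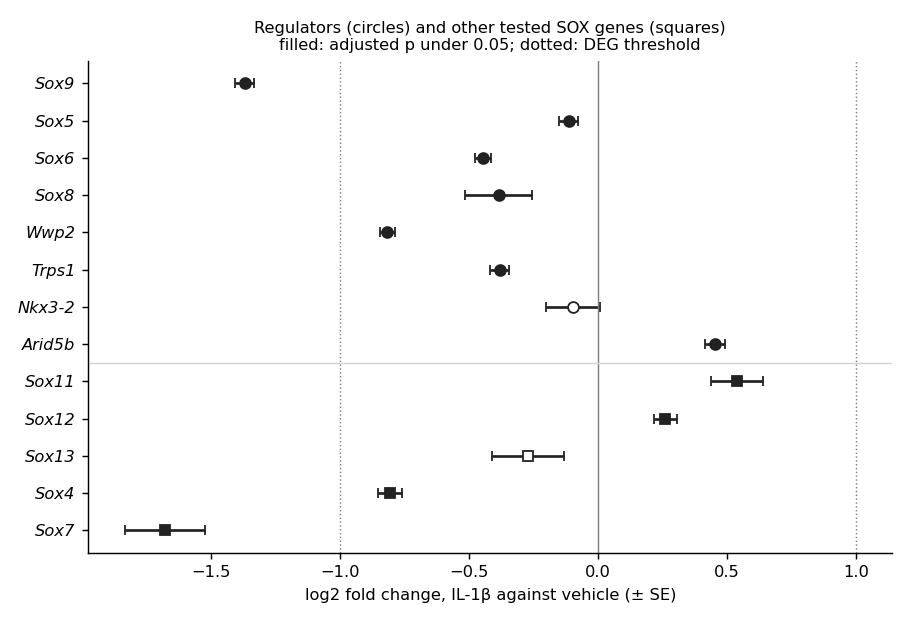
Log2 fold change of IL-1β against vehicle (horizontal axis) with its standard error, for the 8 genes (circles) and the 5 other SOX genes tested (squares), filled where the adjusted p is under 0.05 and with dotted lines at -1 and 1. *Sox9* (-1.37) and *Sox7* (-1.68) lie beyond the dotted line at -1, while *Arid5b*, *Sox11* and *Sox12* lie to the right of 0.

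Cartilage genes known as targets of SOX9, SOX5 or SOX6 all fell where they could be tested. Of 19 in the list, which was chosen with earlier results known, 18 passed the filter and all 18 were lower. Of these, 16 were DEGs, and the median log2FC was -1.81. Of all 14404 genes tested, 19.8% were called lower and 339 were lower DEGs. *Ucma*, with 5 to 10 reads per IL-1β sample, exceeded 1 CPM only in the vehicle samples. *Col27a1*, a fibrillar collagen of cartilage, fell from 94.17 ± 3.02 to 10.59 ± 0.635 CPM (log2FC -3.16, adjusted p = 1.82e-27), and *Matn1*, a matrilin, from 37.18 ± 2.85 to 5.393 ± 0.620 CPM (log2FC -2.79, adjusted p = 2.64e-21). The smallest falls were those of *Papss2*, a sulfate donor synthase (-0.73), and *Col9a2* (-0.89), both singled out after their values were seen. *Mia* was at 0 to 7 reads per sample and was not tested. In the marker list, 7 of 8 chondrocyte markers were lower. All 7 are also in the list of targets, so their fall repeats that count and is no separate result. The 1 marker outside that list, *Prg4*, which encodes lubricin, was higher, with 2011 CPM against 856.2 CPM. The summed marker level was 5271 to 5726 CPM after IL-1β and 14300 to 14820 CPM with vehicle. The part of this shift in the fall of the regulators was not tested.

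Cofactors and modifiers of SOX9 did not move in 1 direction. Of 13 genes, 12 were tested, 3 were higher and 4 lower, none was a DEG, and the median log2FC was 0.0042. The called share was 58.3%, against 40.2% of all genes tested. *Zfp219*, a zinc finger partner of SOX9, rose by 0.39 on the log2 scale (adjusted p = 1.58e-07) and *Med25*, the Mediator subunit that SOX9 contacts, by 0.25 (adjusted p = 8.96e-06). *Fbxw7*, the substrate receptor of a ubiquitin ligase for SOX9, fell by 0.22 (adjusted p = 0.00597) and *Pias1*, a SUMO ligase, by 0.21 (adjusted p = 0.00128).

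Other transcription factors of the chondrocyte lineage were mixed. Of 26 genes, 20 were tested, 5 were higher and 10 lower, 3 of the latter as DEGs, with a median log2FC of -0.19. The called share was 75.0%, against 40.2% of all genes tested. *Runx1*, which favours early chondrogenesis, rose from 41.83 ± 0.801 to 76.35 ± 2.98 CPM (log2FC 0.87, adjusted p = 1.57e-16), and *Foxc2* from 9.134 ± 1.10 to 12.08 ± 1.08 CPM (0.41, adjusted p = 0.00150). *Mef2c*, which drives hypertrophy, fell from 52.20 ± 2.09 to 13.82 ± 0.688 CPM (-1.92, adjusted p = 1.41e-21), and *Gli1*, a readout of hedgehog signalling, from 2.379 ± 0.274 to 0.729 ± 0.333 CPM (-1.63, adjusted p = 5.49e-06). *Gli1*, 1 of the 3 lower DEGs, had 4 to 19 reads per IL-1β sample and passed the filter through the vehicle samples, where it is high. *Runx2*, the gene NKX3-2 holds back, named after its values were seen, was lower, at 66.59 ± 3.41 against 96.00 ± 4.85 CPM (-0.52, adjusted p = 3.17e-11).

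Genes of hypertrophic chondrocytes fell in 4 of 5 tested cases, 3 of them as DEGs, with a median log2FC of -1.64. Over all 14404 genes tested, 19.8% were called lower and 339 were lower DEGs. *Col10a1*, the collagen that defines the stage, fell from 101.4 ± 4.16 to 12.62 ± 0.983 CPM (-2.996, adjusted p = 9.44e-27), and *Pth1r*, the parathyroid hormone receptor, from 98.43 ± 4.58 to 27.19 ± 1.90 CPM (-1.85, adjusted p = 1.27e-22). *Spp1*, which encodes osteopontin, rose from 1374 ± 48.9 to 2394 ± 64.1 CPM (0.80, adjusted p = 2.23e-19).

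The families of WWP2, ARID5B and TRPS1 were examined beside them. Among the other NEDD4 family ligases, 7 of 8 were tested, 2 rose and 2 fell, with a median log2FC of -0.02. The called share was 57.1%, against 40.2% of all genes tested. *Smurf1*, a ligase for SMADs, rose by 0.51 (adjusted p = 1.10e-10) and *Smurf2* by 0.10 (adjusted p = 0.0282), while *Nedd4l* fell by 0.27 (adjusted p = 3.76e-06) and *Nedd4* by 0.14 (adjusted p = 0.000156). *Wwp1*, the closest relative of *Wwp2*, named after its values were seen, had a log2FC of -0.02 (adjusted p = 0.768). By DESeq2, with no filter on low counts, or without IL-1β replicate 1 or 2 or vehicle replicate 1 or 2, 1 of these ligases was higher.

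Of the 8 ARID genes in the list, which leaves out ARID5, 7 were tested, 2 rose and 2 fell. The called share was 57.1%, against 40.2% of all genes tested. *Arid3a* rose from 0.968 ± 0.181 to 2.719 ± 0.713 CPM (log2FC 1.49, adjusted p = 5.03e-06) and was a DEG. It had only 13 to 21 reads per vehicle sample and passed the filter through the IL-1β samples, where it is high. *Arid3b* had a log2FC of 0.55 (adjusted p = 0.0357) with overlapping groups, and *Arid4a* (-0.17, adjusted p = 0.00960) and *Arid1a* (-0.13, adjusted p = 0.00251) fell. By DESeq2, with a CPM above 1 required in all 8 samples, or without IL-1β replicate 2 or 3 or vehicle replicate 1, 2 or 3, 1 of these genes was higher. Among 6 GATA genes, 2 were tested and none was called: *Gata2* had a log2FC of -0.22 (adjusted p = 0.053) and *Gata3* of 0.02 (adjusted p = 0.963). With no filter on low counts or with filterByExpr 1 GATA gene was higher, and without IL-1β replicate 1 or vehicle replicate 4 1 was lower.

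**Figure D4:**
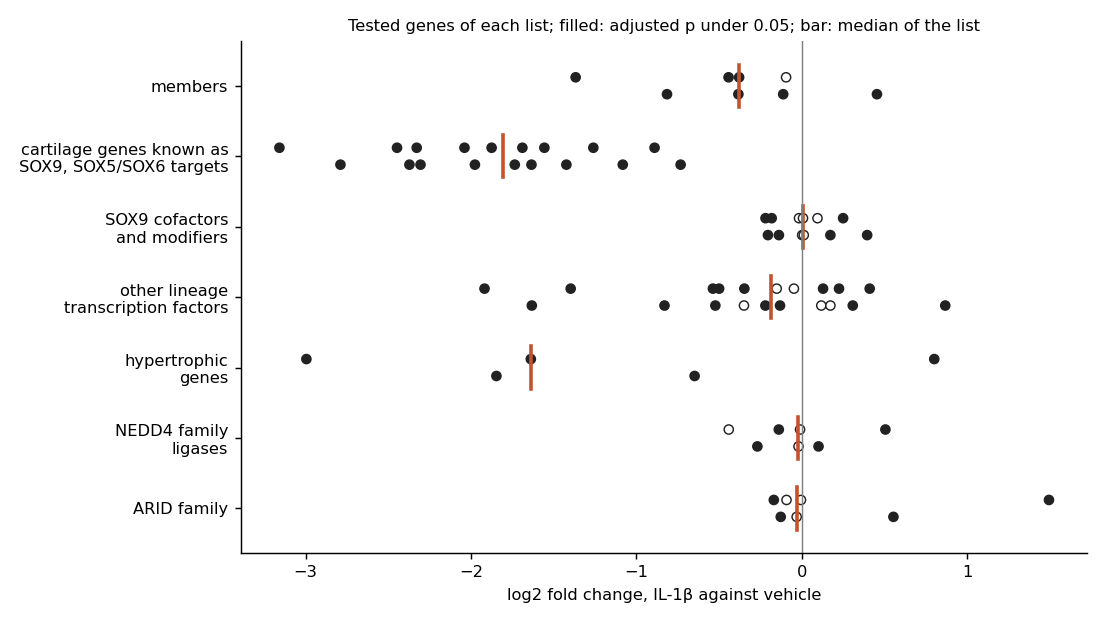
Log2 fold change of IL-1β against vehicle (horizontal axis) of every tested gene in each list, 1 point per gene, filled where the adjusted p is under 0.05, with the median of the list as a bar. All tested SOX targets lie left of 0 (median -1.81), while cofactors, NEDD4 and ARID genes spread on both sides.

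The genes whose profile over the 8 samples was nearest to that of *Sox9* were sought among the 8755 genes with a mean of at least 10 CPM, by the root mean square difference of log2 CPM after subtracting the vehicle mean. The nearest 5 were *Col6a3* (0.0434), *Ctgf* (0.0477), *Pcolce* (0.0540), *Chad* (0.0610) and *Pcsk6* (0.0645). *Col6a3*, a pericellular collagen chain, fell from 1876 ± 21.8 to 732.9 ± 15.7 CPM, and *Ctgf*, a matricellular growth factor binder, from 384.2 ± 10.1 to 146.6 ± 4.10 CPM. *Chad*, which encodes chondroadherin and is also in the list of SOX targets, fell from 227.0 ± 7.72 to 84.18 ± 6.22 CPM. Of the other 7 regulators, *Wwp2* was nearest, at place 163 (0.396), followed by *Sox6* at place 438 (0.661) and *Trps1* at place 551 (0.707). *Sox5* (place 2321) and *Arid5b* (place 8178) were distant, and *Sox8* and *Nkx3-2* were under the minimum level. The measure is a description over samples that share a treatment and has no test.

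Genes around these loci were also compared. The nearest protein-coding gene on each side gave 16 neighbours, of which 11 were tested, 5 were lower and 2 higher. Over all genes tested, 19.8% were called lower and 20.4% higher. The neighbours lay 601 bases (*1110004F10Rik* from *Sox6*) to 1862689 bases (*Csmd3* from *Trps1*) away. Their log2FC values ran from -1.27, for *Csmd3*, to 0.22, for *Lmf1* beside *Sox8*. *Csmd3* had 7 to 12 reads per IL-1β sample and exceeded 1 CPM only in the vehicle samples. *Slc39a11*, the tested neighbour of *Sox9*, 457093 bases away, had a log2FC of 0.08 (adjusted p = 0.203). *Kcnj2*, on the other side and 1705403 bases away, did not pass the filter. Beside *Wwp2*, *Nob1* (-0.13, adjusted p = 0.00813) and *Psmd7* (-0.09, adjusted p = 0.0248) were both called lower. Beside *Sox6*, *1110004F10Rik* had a log2FC of -0.12 (adjusted p = 0.00670) and *Insc* had no reads. *Bcat1* (-0.22, adjusted p = 3.13e-07) and *Etnk1* (0.06, adjusted p = 0.196) flank *Sox5*, and *Rab28* (-0.01, adjusted p = 0.869) and *Bod1l* (0.07, adjusted p = 0.140) flank *Nkx3-2*. *Eif3h*, on the other side of *Trps1* and 896095 bases away, had a log2FC of 0.10 (adjusted p = 0.0187). No neighbour of *Arid5b* was tested.

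Within the spans of these genes, 14 other genes are annotated and 4 were tested. Inside *Sox6*, the antisense gene *Gm45025* fell from 1.719 to 1.039 CPM (log2FC -0.78, adjusted p = 0.0194) and *Sox6os* had a log2FC of -0.31 (adjusted p = 0.314), and neither shares exon bases with *Sox6*. *Gm45025* had 9 to 17 reads per IL-1β sample and 18 to 38 per vehicle sample. Whether the counting used strand is not given, so reads of these antisense genes cannot be told apart from reads of *Sox6* introns. The processed pseudogene *Rps26-ps1*, inside *Wwp2*, had a log2FC of 0.13 (adjusted p = 0.270). None of the genes annotated within *Sox5* passed the filter, though exons of *Sox5os1* cover 9.25% of the exon bases of *Sox5*.

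Promoters of 6 of the 8 genes, 11 promoters in all, matched the RefSeq table (GRCm38.p6), and *Sox9* and *Trps1* are named only. The 250 bases before each start were searched on both strands for the SOX core motifs ACAAAG and ACAATG, whose matches cannot overlap each other, and for the NF-κB consensus. ACAAAG stood in 5 of the 6 *Sox6* promoters, with 7 matches, in 0 of the 5 promoters of the other genes, and in 16.5% of all 32851 promoters. ACAATG stood in 10.7% of all promoters and in 1 of the 5 promoters of the other genes, that of *Sox5*. *Sox6* had 3 matches, 2 in the promoter at 115995037 to 115995336 and 1 in that at 115824661 to 115824960. The NF-κB consensus was in 0 of the 11 and in 7.25% of all promoters. Printed on the strand of the gene are matches at the first *Sox6* start, the same-strand ACAAAG matches of a later *Sox6* start, and the match of *Sox5*, the 2 SOX genes that act with SOX9, with the motif in capitals. Matches and their absence describe these windows only.
*Sox6*, chr7:116038840-116038869, minus strand: tttttttcaggaACAAAGggaatgtggaaa
*Sox6*, chr7:115824823-115824852, minus strand: tcccctgtgctcACAAAGggctcataactt
*Sox6*, chr7:115824783-115824812, minus strand: gtgaggccgaccACAAAGctccactgttgc
*Sox5*, chr6:143947243-143947272, minus strand: gactgaagagacACAATGgttgtgaatact

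The labelled cell type was checked against its markers. All 8 chondrocyte markers were tested, and *Col2a1* was the most abundant of them, with 11190 CPM in vehicle samples. Fibroblast markers summed to 237.6 to 255.5 CPM after IL-1β and 339.8 to 349.7 CPM with vehicle, osteoblast markers to 29.1 to 35.64 and 80.11 to 90.93 CPM, and glia and neural crest markers to 7.801 to 9.741 and 10.73 to 13.75 CPM. Macrophage markers summed to 15.86 to 18.89 and 11.50 to 12.77 CPM, and the 2 that were tested went opposite ways. *Cd68*, which made up most of the sum, was higher with IL-1β (14.99 against 9.481 CPM), *Lyz2* was lower (1.244 against 1.864 CPM, log2FC -0.60, adjusted p = 0.0364), and *Adgre1* and *C1qa* had at most 3 reads in any sample. Endothelial, muscle, adipocyte and erythroid markers summed to at most 1.803 CPM in any sample. The part of these other cell types in the changes of the regulators was not tested.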

How the data were processed

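RNA-Seq covered 4 IL-1β and 4 vehicle samples of murine articular chondrocytes, grouped by the treatment in their labels. Per the labels and methods, reads were trimmed (cutadapt) and aligned to mm10 by STAR (version 2.4.2a in the submitters' processing notes) with the GENCODE vM20 annotation, and featureCounts gave the counts. The deposited values are unscaled whole-number counts, 1 row per gene symbol. Whether these were taken before the RUVseq correction named in the methods is not given in the sources used here, and the counts were used as they are. A column of summed exon lengths in bases (unit: other), deposited beside the counts, was used for RPKM.

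In R 4.3.3, edgeR 4.0.16 (with limma 3.58.1) scaled the counts by TMM and fitted its quasi-likelihood model with treatment as the term, for 14404 genes that exceeded 1 CPM in 4 or more samples. The spread between samples of a group (common biological coefficient of variation) came to 4.11%. The code was tested on simulated data. Ratios were compared by exact permutation tests (scipy 1.17.1), and Python 3.11.15 with pandas 2.3.3 and numpy 2.4.6 gave the other values, drawn with matplotlib 3.10.9. Totals of 10992355 to 17456063 counts put 3 counts at 0.172 to 0.273 CPM, a floor that covers counting error only. Positions, 3′ UTRs and overlaps came from GENCODE vM21 (GRCm38), where 98.8% of the symbols matched 1 gene. miRNAs and promoters came from RefSeq (GRCm38.p6).

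The 8 genes, the lists and the tests were chosen with earlier results of these data known. Genes named beside the 8 were, per list, the 2 largest rises and 2 largest falls among called genes, every SOX gene tested, genes in or next to the 8 loci, and the 5 nearest profiles to *Sox9* among genes of at least 10 CPM. Alternatives were DESeq2 1.42.0, scaling by total library size or by DESeq2's size factors, other or no filters for low counts, the replicate number as a block, 1 factor by the RUVs procedure, log2 of CPM with a pseudocount of 1, 8mer sites only, CPM in place of RPKM, and each sample left out.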

Additional observations from a re-analysis of the deposited data

Results flagged for a closer look

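No value was set apart by Dixon's ratio, which was computed for the 8 genes and the total counts in each group of 4 samples (18 groups, of which chance would mark 0.9).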

How the results depend on the processing

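Outside the settings that leave out a sample, 108 of 111 recomputed values of the main results held. The seed sites and the order by level are not among these 111. For a fold change, to hold means the same direction and side of the threshold. For a ratio to *Sox9* it means a move of less than 1 SD, and for a count a value within 1.5 times. Within that tolerance, the genes called among the 8 went from 7 to 5 by DESeq2, and DEGs from 751 to 511 with a CPM above 1 required in all 8 samples. By DESeq2, *Sox5* (log2 fold change -0.1127, adjusted p = 0.0655) and *Sox8* (-0.3862, adjusted p = 0.0559) were not called. With no filter on low counts there were 1206 DEGs in place of 751. Beyond the 111 values, with 8mer sites only, 1 of the 8 genes in place of 3 had a miR-140-3p site. By CPM, *Sox9* took place 2 among the 8 genes in IL-1β samples in place of 1. Leaving out each sample in turn gave log2 fold changes of -0.1192 to -0.1009 for *Sox5*, which was not called without IL-1β replicate 2 (adjusted p = 0.0533), and -0.4496 to -0.3322 for *Sox8*, which was not called without IL-1β replicate 4, vehicle replicate 1 or vehicle replicate 4 (adjusted p = 0.0586, 0.0545 and 0.0639). For *Sox9* they were -1.394 to -1.330, and 6 to 7 of the 8 genes stayed called. The ratios to *Sox9* kept their direction without any sample, where the smallest p that the exact test allows is 0.0571. Of the 144 counts per list recomputed with all samples, 138 stayed within 1.5 times. Same-numbered samples did not deviate together (r between -0.0699 and 0.0416), so the numbers were not taken as pairs. With the replicate block, 7 of the 8 genes were called, as without it, with log2 fold changes of -1.37 for *Sox9* and -0.1125 for *Sox5* (adjusted p = 0.0296). Depth limits *Sox8* and *Nkx3-2* most, which had 45 to 128 reads per sample.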
